A study of Mus musculus with 6 samples.

Results

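The BCL2 family decides whether a cell opens the outer membrane of its mitochondria and dies by apoptosis. The 10 genes described here were chosen by name as its best-known members, with earlier results of these data known. Each has 1 entry among the 25996 genes of the deposited table. They are 3 anti-death genes (Bcl2, Bcl2l1 and Mcl1), 2 pore-forming effectors (Bax and Bak1) and 5 BH3-only genes (Bbc3, Pmaip1, Bad, Bcl2l11 and Bid). The effectors and the BH3-only genes together make up 7 pro-death members. RNA was sequenced from mouse neural stem cells kept in proliferation, 3 libraries with a control hairpin on a wild-type background (shControl) and 3 with a hairpin that knocks down Mina53, gene symbol Riox2 (shMina53). The protein is a JmjC-family oxygenase found in the nucleus, and the series title calls it an arginine demethylase. The labels give no strain, age or sex, no number of hairpins, and no statement on whether each replicate was grown as its own culture. The p-values therefore measure the spread between these libraries, which may be technical.

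In this family the anti-death proteins hold Bax and Bak1 in check at the mitochondrion. BH3-only proteins are the sensors: they bind and neutralise the anti-death proteins or activate the effectors directly, and the pore then releases cytochrome c to start the caspases. In the developing brain, neural progenitors depend on Mcl1 and newborn neurons on Bcl2l1. Bbc3 (the protein PUMA) and Pmaip1 (NOXA) are classical targets of p53, and FOXO factors are known to switch on Bbc3 and Bcl2l11 (BIM).

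The knockdown was visible in every library. Riox2 stood at 290.4, 333 and 307 scaled counts in the 3 shControl libraries and at 121, 125 and 121 in the 3 shMina53 libraries, a log2 fold change of -1.34 (SE 0.146; limma adjusted p = 9.1e-05). Riox2 shares 1185 exon bases with Crybg3 on the other strand, which had a mean of 259 scaled counts against 216 for Riox2. No strand setting is given for the counting, so reads of this pair may be mixed. Scaled counts are reads corrected by a single factor for each library, and 1 read was worth 0.939 to 1.13 scaled counts. Library totals were 13753857 to 16811085 reads, and the least covered member, Bad, rested on 816 reads over the shControl libraries and 520 over the shMina53 libraries. Progenitor markers were abundant: the 10 genes fixed for this type summed to 102600 to 123800 scaled counts in shControl and 86550 to 91860 in shMina53. Most of each sum was Vim (called lower, -0.42) and Fabp7 (-0.14, not called). Of the 10 progenitor markers, 3 were called lower and 1 higher (median log2 fold change -0.16). Calls are at a limma adjusted p under 0.05, and of all genes tested 4.47% were called lower and 3.79% higher. Astrocyte markers (5 genes) summed to 18140 to 19850 and 22550 to 23680, with 2 called higher and 0 lower (median 0.37). By group means Aldh1l1 (-0.14, not called) was the largest part of that sum and Gja1 (0.84, called higher) the next. Neuronal markers (5 genes) summed to 10210 to 12780 and 13840 to 14660, a sum made up almost entirely of Map2 (called higher, 0.37). The other 4 neuronal markers lay below zero, Tubb3 being called lower (-0.53), and the list's median was -0.49. Oligodendrocyte lineage markers (5 genes) summed to 11520 to 12580 and 10330 to 13280, mostly Olig2 (0.02, not called), but 3 of the 5 were called lower, Sox10 (-1.21), Mbp (-0.97) and Pdgfra (-0.79), and the median was -0.79. Both measured microglia markers together stayed at or under 5.8 scaled counts in each library. In bulk RNA, fewer cells of a type and less RNA per cell cannot be told apart, and the part of these marker differences in the results below was not tested.

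Two-sided limma tests over 21500 genes called 3 of the 10 members at an adjusted p under 0.05, beside 8.26% of all genes tested and 13.5% of the 10929 genes averaging 100 scaled counts or more. The BH3-only gene Bbc3 and the anti-death gene Bcl2l1 fell in shMina53, and the BH3-only gene Pmaip1 rose. Thus 2 members were called lower (4.47% of all genes were, and 7.79% of the more abundant ones) and 1 higher (3.79% and 5.76%). The other 7 members were not called. In 8 of 10 members the 3 shMina53 libraries did not overlap the 3 shControl libraries, 6 below (14.1% of all genes tested were) and 2 above (14.9%), beside 29.1% of all genes tested and 38.9% of the more abundant ones. The median log2 fold change was -0.26 over the 10 members, -0.25 over the 3 anti-death and -0.26 over the 7 pro-death members, and 0.02 over all genes tested. Both sides of the family thus held members with values below and above zero.

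**Figure D1:**
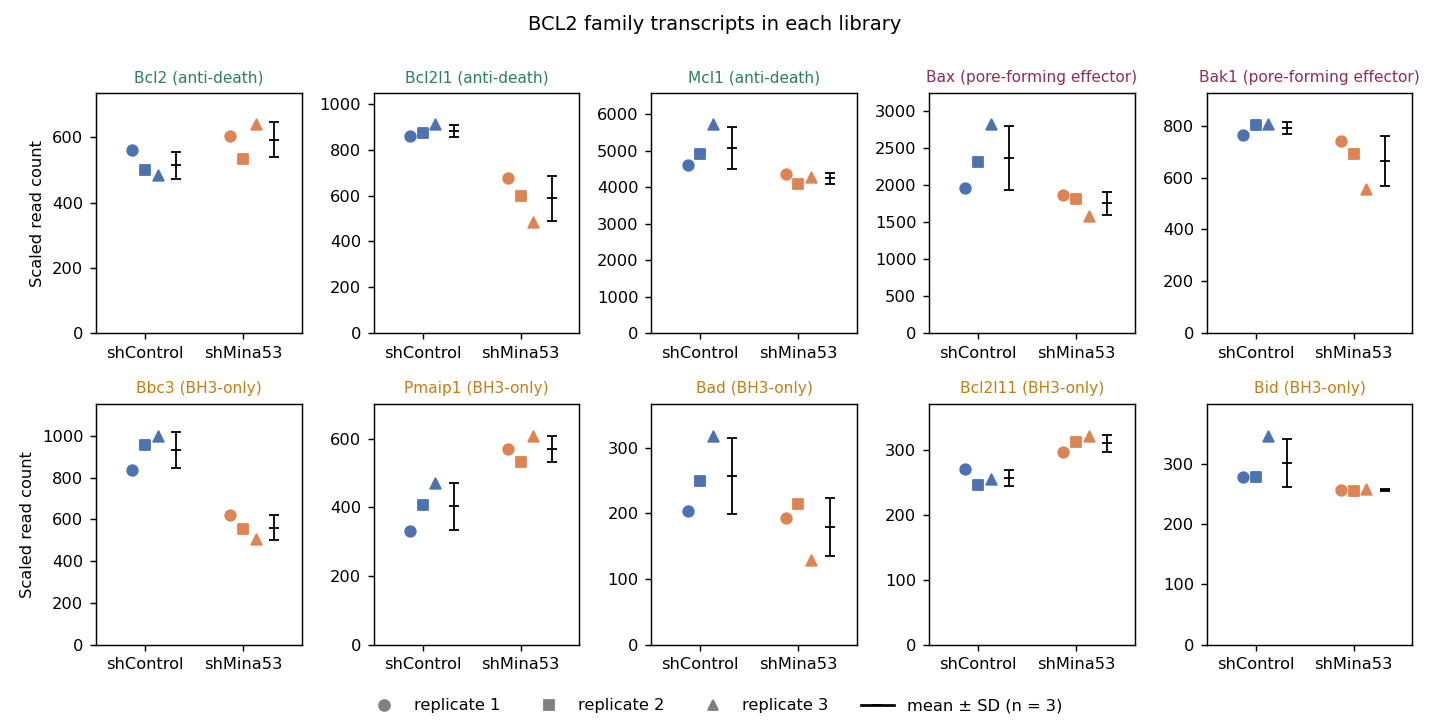
Scaled read counts (y axis, from 0) of the 10 BCL2 family members in each library, with replicates 1 to 3 as circles, squares and triangles and the mean ± SD (n = 3) beside them. Bbc3 and Bcl2l1 lie lower and Pmaip1 higher in all 3 shMina53 libraries, whereas the groups overlap for Bcl2 and Bad.

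The stretches of DNA before the transcription starts of Bbc3 and Bcl2l1, which fell, and of Bax, the effector with the smallest p, are shown to let their sequences be compared. Each is the 250 bases before a RefSeq start (GRCm38.p6), free of annotated exons. Capitals mark matches on either strand to GGGCGG (a GC box), to the CCAAT box, to CACGTG (an E-box), to TGTTTAC (a FOXO element), to TATAAA (a core promoter element) or to the p53 half-site consensus. Matches may overlap one another.
Bbc3, chr7:16310011-16310260, plus strand: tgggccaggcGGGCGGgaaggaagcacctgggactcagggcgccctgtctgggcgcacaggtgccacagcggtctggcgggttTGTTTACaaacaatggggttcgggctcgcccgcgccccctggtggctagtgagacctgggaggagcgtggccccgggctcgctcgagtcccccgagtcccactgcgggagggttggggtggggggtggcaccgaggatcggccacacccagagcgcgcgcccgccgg
Bcl2l1, chr2:152831729-152831978, minus strand: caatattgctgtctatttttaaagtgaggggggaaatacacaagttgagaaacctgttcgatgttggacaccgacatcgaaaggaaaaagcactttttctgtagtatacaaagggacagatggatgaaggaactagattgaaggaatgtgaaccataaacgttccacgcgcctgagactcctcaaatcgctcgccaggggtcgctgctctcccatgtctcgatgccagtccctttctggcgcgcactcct
Bax, chr7:45466899-45467148, minus strand: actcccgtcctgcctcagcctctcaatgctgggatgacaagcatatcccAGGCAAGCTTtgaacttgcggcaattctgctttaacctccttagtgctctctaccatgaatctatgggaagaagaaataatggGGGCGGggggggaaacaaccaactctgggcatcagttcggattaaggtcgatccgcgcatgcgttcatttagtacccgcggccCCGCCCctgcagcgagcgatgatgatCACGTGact

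The Bbc3 window held 1 FOXO element, starting 167 bases before the start site, and 1 GC box. The windows of the other 2 Bbc3 starts, also free of annotated exons, had 5 and 7 GC boxes and no FOXO element. The one with 7 also had 1 E-box and 1 CCAAT box. The window shown is thus the only Bbc3 window with a FOXO element. Which start was used in these cells was not measured. A FOXO element was present in 3.17% of all 32851 RefSeq windows of this length, a share per window and not per gene. Among the members it was also found before 1 of the 2 starts of Bcl2l11, 227 bases upstream. The Bax window held 1 p53 half-site, 201 bases before the start, with 2 GC boxes and 1 E-box. Half-sites of this kind were present in 7.13% of all windows, GC boxes in 32.7% and E-boxes in 6.02%. The Bcl2l1 window had no match to any motif searched, and its GC content was 47.6%, against 72.4% in the Bbc3 and 54.0% in the Bax window. The windows of the other Bcl2l1 starts lie within annotated exons and had no match either. In all, 9 of the 10 members had a window in the RefSeq table. Pmaip1, the called member that rose, had none and so was not searched for motifs. A match is a description of the letters and says nothing on binding.

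Among the anti-death genes, Bcl2l1 (ENSMUSG00000007659; chromosome 2, 152780668 to 152831728, minus strand) fell. This gene encodes BCL-XL, and a shorter splice form with the opposite, pro-death activity, which a gene count cannot separate. In shControl 1, 2 and 3 its scaled counts were 860, 872 and 910.3, while the shMina53 libraries had 679, 598 and 486 in replicate order. Every shMina53 library was under every shControl library, and the shMina53 libraries were the more spread, at 587 ± 96.9 (SD, n = 3) against 881 ± 26.3. The log2 fold change was -0.60 (SE 0.128; limma adjusted p = 0.00903), so that the shMina53 mean was 66.7% of the shControl mean. The call was lost without shMina53 3 (-0.47; adjusted p = 0.073) and without shControl 2 (-0.60; adjusted p = 0.05, just over the threshold).

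Mcl1 (ENSMUSG00000038612; chromosome 3, 95658788 to 95663176, plus strand), whose protein is short-lived, had 4605, 4908 and 5718 scaled counts in shControl 1, 2 and 3. In shMina53 1, 2 and 3 it had 4361, 4079 and 4283. The groups did not overlap, but shControl 1 lay close to shMina53 1, and the log2 fold change of -0.25 (95% interval -0.49 to -0.02; limma adjusted p = 0.168) was not called.

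Bcl2 itself (ENSMUSG00000057329; chromosome 1, 106538178 to 106714274, minus strand), the founding member, measured 561, 499 and 483 scaled counts in the shControl libraries against 603, 533 and 639 in the shMina53 libraries, in replicate order. The groups overlapped, since shControl 1 exceeded shMina53 2. Its log2 fold change was 0.20 (95% interval -0.06 to 0.46; limma adjusted p = 0.341). The interval leaves room for a rise of up to 0.46 on the log2 scale and for no change.

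Of the effectors, Bax (ENSMUSG00000003873; chromosome 7, 45461697 to 45466898, minus strand), which forms pores in the mitochondrial outer membrane once activated, had 1960, 2311 and 2825 scaled counts in shControl 1, 2 and 3. Values were 1873, 1813 and 1585 in shMina53 1, 2 and 3. All 3 shMina53 libraries were lower, although shControl 1 was nearer to shMina53 1 than to shControl 3. With a log2 fold change of -0.42 (95% interval -0.69 to -0.14) Bax just missed the threshold (limma adjusted p = 0.0563). It passed under 6 of 17 other settings, among them DESeq2 on the recovered reads (adjusted p = 0.023) and the fit without shControl 1 (-0.54; adjusted p = 0.00575). Without shControl 3 it was smaller and still called (-0.28; adjusted p = 0.0437).

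Bak1 (ENSMUSG00000057789; chromosome 17, 27019810 to 27029009, minus strand), the effector that resides on mitochondria, gave 763, 802 and 805 scaled counts with the control hairpin against 741.5, 692 and 557 in shMina53. All shMina53 libraries were below the controls, and shMina53 3 was the lowest by a wide margin. The log2 fold change of -0.26 (SE 0.124) was not called (limma adjusted p = 0.213), and it was -0.14 without shMina53 3. Bak1 shares 437 exon bases with Ggnbp1 on the other strand, whose mean was 66.5 scaled counts against 727 for Bak1.

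Bbc3 (ENSMUSG00000002083; chromosome 7, 16308393 to 16318205, plus strand), a BH3-only gene whose protein PUMA binds all anti-death members, showed the largest fall of the 10. Its values were 835, 955 and 1002 scaled counts in shControl 1, 2 and 3 against 623, 556 and 504 in shMina53 1, 2 and 3. The gap between the groups, from 623 to 835, was wider than the range within either. The means were 931 ± 86.1 and 561 ± 59.5 (SD, n = 3), and the log2 fold change was -0.73 (95% interval -0.99 to -0.47; limma adjusted p = 0.00181), which left 60.3% of the control level. It was called in all 6 fits that left out 1 library, at -0.81 to -0.66 with adjusted p up to 0.0285.

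Pmaip1 (ENSMUSG00000024521; chromosome 18, 66458533 to 66465565, plus strand), whose protein NOXA binds mainly MCL1, moved the other way. Its scaled counts were 332, 405 and 471 with the control hairpin and 568, 532 and 609 with the knockdown, in replicate order. The groups did not overlap, and shControl 3, the highest control, came nearest to the knockdown libraries. Pmaip1 rose by a log2 fold change of 0.51 (SE 0.137; limma adjusted p = 0.0296), to 142% of the control mean. Of the 6 fits that left out 1 library the call was kept in 1, without shControl 3, where the p was far smaller (0.63; adjusted p = 0.000183). It was lost without shControl 1 (0.38; adjusted p = 0.0687), shControl 2 (0.52; adjusted p = 0.0983), shMina53 1 (0.51; adjusted p = 0.0894), shMina53 2 (0.56; adjusted p = 0.09) and shMina53 3 (0.46; adjusted p = 0.154).

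Bad (ENSMUSG00000024959; chromosome 19, 6941861 to 6951899, plus strand), a BH3-only gene that growth factor signalling controls by phosphorylation of its protein, was measured at 204, 249 and 318 scaled counts in shControl against 193, 214 and 129 in the knockdown libraries. The groups overlapped and spread widely, with shControl 3 highest and shMina53 3 lowest. A log2 fold change of -0.53 (SE 0.200) was therefore not called (limma adjusted p = 0.115). It was -0.31 without shMina53 3, -0.36 without shControl 3 and, without shControl 1, -0.69 and called (adjusted p = 0.0244). Bad shares 524 exon bases with Gpr137 on the other strand, which had a mean of 686 scaled counts against 218 for Bad. The sources used here give no strand setting for the counting, so reads of the pair may be mixed.

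Bcl2l11 (ENSMUSG00000027381; chromosome 2, 128126038 to 128162547, plus strand) encodes BIM, which binds all anti-death proteins. Controls gave 271, 246 and 256 scaled counts, and knockdown libraries 298, 312 and 323. All 3 knockdown libraries were above the controls by a small step. Its log2 fold change of 0.27 (95% interval -0.004 to 0.55) was not called (limma adjusted p = 0.219), and with the trend on gene length removed it was 0.17.

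Bid (ENSMUSG00000004446; chromosome 6, 120891930 to 120916853, minus strand) links death receptors to mitochondria once caspase 8 has cut its protein. Controls gave 278, 278 and 347 scaled counts, and knockdown libraries 256, 254 and 259, so that shControl 3 stood apart while the other 5 libraries were close. The log2 fold change was -0.22 (SE 0.139; limma adjusted p = 0.359) and -0.12 without shControl 3. Bid shares 628 exon bases with a relative, Bcl2l13, on the other strand, which had a mean of 1911 scaled counts against 279 for Bid. Bcl2l13 had a log2 fold change of 0.20 and was not called (limma adjusted p = 0.303). With no strand setting given, reads of this pair may be mixed as well.

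**Figure D2:**
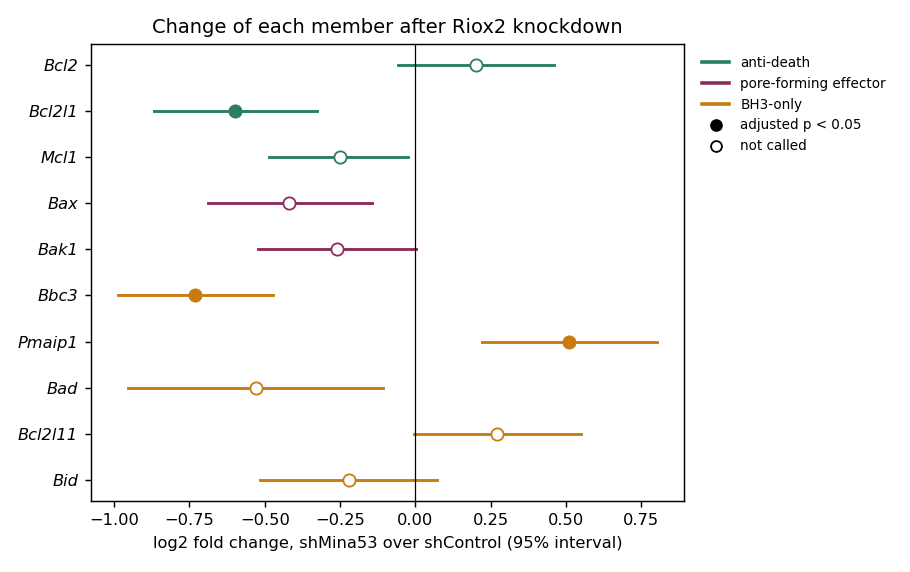
Log2 fold change of each member, shMina53 over shControl, with its 95% interval from limma (x axis), coloured by role, with filled points for members called at an adjusted p under 0.05. The filled points are Bcl2l1 (-0.60), Bbc3 (-0.73) and Pmaip1 (0.51).

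The test of each member was repeated without each library in turn. Direction was kept by all 10 members in all 6 such fits. The number of members called lower ran from 1 to 4 and the number called higher from 0 to 1. Of all 21500 genes tested, the same fits called 270 to 1401 lower and 212 to 1380 higher. It was without shControl 1 that 4 members were lower (Bcl2l1, Bax, Bbc3 and Bad), the fit that called 1401 of all genes lower. Without shControl 2 or without shMina53 3, Bbc3 was the 1 member called in either direction. Those 2 fits called 332 and 270 of all genes lower. The member counts thus moved along with the number of calls over all genes. Within the shControl group, shControl 3 had the highest value of Bcl2l1, Mcl1, Bax, Bak1, Bbc3, Pmaip1, Bad and Bid, and shControl 1 the highest of Bcl2 and Bcl2l11. Within shMina53, replicate 3 was the lowest for Bcl2l1, Bax, Bak1, Bbc3 and Bad.

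**Figure D3:**
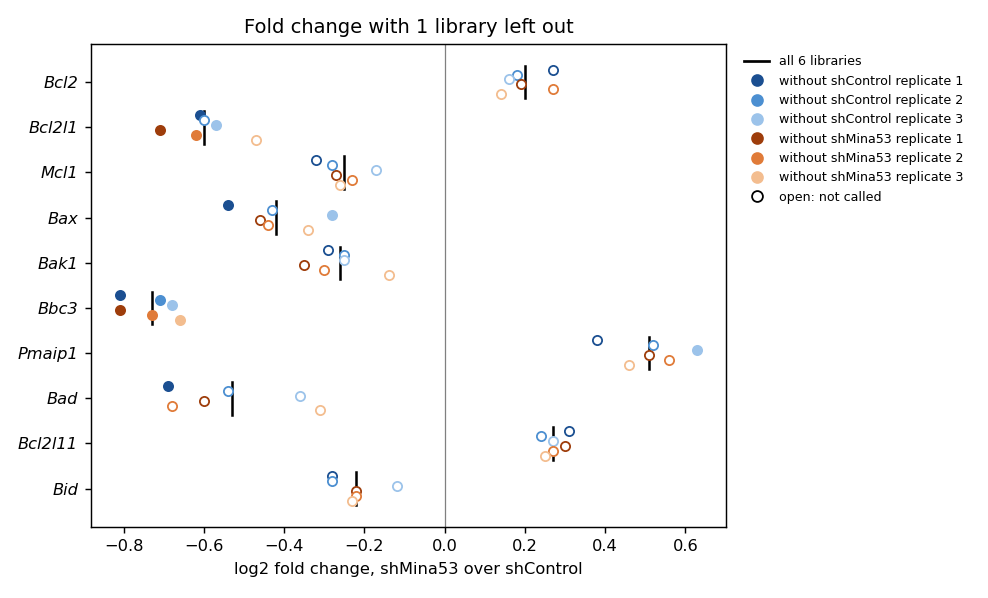
Log2 fold change of each member (x axis) with all 6 libraries (black bar) and with 1 library left out (points, coloured by the library left out), open where the adjusted p was not under 0.05. Bbc3 is filled in all 6 fits and Pmaip1 in 1, and no point crosses zero.

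Levels were compared between genes per kb of exon (scaled count divided by the length of all annotated exons of the gene). In shControl, Bax (1501 ± 276 per kb) and Mcl1 (1485 ± 168 per kb) led and could not be separated from each other. Bbc3 (438 ± 40.5 per kb), Bak1 (328 ± 9.75 per kb) and Bcl2l1 (192 ± 5.73 per kb) followed, each above the next in all shControl libraries. Pmaip1 (147 ± 25.4 per kb), Bad (100.5 ± 22.6 per kb) and Bid (84.8 ± 11.1 per kb) came next, with Pmaip1 overlapping Bad and Bad overlapping Bid. The lowest levels were those of Bcl2 (56.2 ± 4.50 per kb) and Bcl2l11 (32.0 ± 1.55 per kb), both of which have long annotated exons (9157 and 8029 bases). On this scale Mcl1 carried 84.4% to 86.9% of the summed transcripts of the 3 anti-death members in shControl and 85.6% to 87.7% in shMina53. Other anti-death genes of the family are not in this sum. Bcl2l1 has 4586 exon bases but 2568 in its longest transcript, so this share depends on the length used. Part of the order of the members depends on it as well. Per kb of the longest annotated transcript, the shControl mean of Bcl2l1 (343 ± 10.2) was above that of Bak1 (330.9 ± 9.84). Likewise that of Bad (167.6 ± 37.7) was above that of Pmaip1 (147.6 ± 25.5). By their means Bax (2150 ± 395), Mcl1 (1485 ± 168), Bbc3, Bid, Bcl2 and Bcl2l11 kept their ranks.

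**Figure D4:**
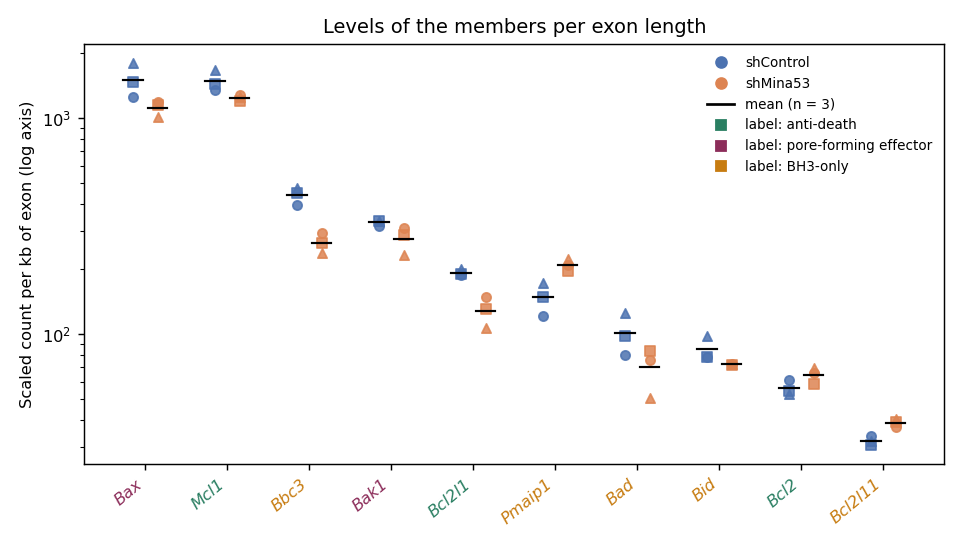
Scaled counts per kb of exon (log axis) of the 10 members in each library, ordered by the shControl mean, with shControl in blue and shMina53 in orange. Bax and Mcl1 stand above all others in both groups, and Bcl2 and Bcl2l11 have the lowest means in both.

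The balance of the 2 sides was described by sums per kb over the 10 members in each library. Other family genes, among them the effector Bok described below, are not in these sums. Pro-death over anti-death transcripts gave 1.42, 1.55 and 1.57 in the shControl libraries, in replicate order, and 1.46, 1.51 and 1.3 in those of shMina53, so the groups overlapped (1.51 ± 0.0814 and 1.42 ± 0.11). The effectors over the anti-death genes gave 0.978, 1.07 and 1.11 in shControl and 1.00, 1.04 and 0.866 in shMina53. BH3-only over anti-death transcripts gave 0.443, 0.479 and 0.467 against 0.460, 0.471 and 0.436. None of these 3 ratios separated the groups.

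The mix of BH3-only transcripts and 2 ratios between single members are given as a description, with no test. They were chosen after the values were seen and are built on the 3 called members, so that their differences follow from that choice. Among BH3-only transcripts per kb, Bbc3 made up 55.7%, 55.9% and 52.5% in shControl and 42.7%, 40.2% and 38.0% in shMina53. Pmaip1 made up 17.2%, 18.4% and 19.2% in shControl and 30.3%, 29.9% and 35.7% in shMina53. The ratio of Pmaip1 to Bbc3 scaled counts was 0.397, 0.424 and 0.470 in shControl and 0.913, 0.957 and 1.21 in shMina53. On the anti-death side, the ratio of Bcl2l1 to Bcl2 scaled counts was 1.53, 1.75 and 1.89 in shControl and 1.12, 1.12 and 0.760 in shMina53. The share of Mcl1 among transcripts of the 3 anti-death members, given above, overlapped between the groups (85.6% ± 1.26 and 86.6% ± 1.06, SD, n = 3).

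The other genes of the pathway were taken from 6 lists, also chosen with earlier results of these data known. Beside their counts, limma called 4.47% of all genes tested lower and 3.79% higher. Among genes averaging 100 scaled counts or more the shares were 7.79% and 5.76%. Of 15 other BCL2 family genes, 10 could be tested, of which 1 was called lower, 0 higher (also 0 at an unadjusted limma p under 0.05 and 0 by edgeR) and 9 not called (median log2 fold change -0.18). The called gene was Bok, a Bax-like effector, with 485, 518 and 626 scaled counts under the control hairpin and 364, 358 and 276 under the knockdown. It fell by 0.71 on the log2 scale (limma adjusted p = 0.00639), a call lost without shMina53 3 (-0.58; adjusted p = 0.064). Bok thus had every knockdown library under every control, as Bax and Bak1 had, although neither of those was called. Of all genes tested, 14.1% had every knockdown library under every control.

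Downstream of the pore, 13 genes of the apoptosome and the executioner caspases were tested, with 1 called lower and 12 not called (median -0.12). Cycs, the gene of somatic cytochrome c, fell from a mean of 2238 ± 366 scaled counts to 1491 ± 193 (log2 fold change -0.58; limma adjusted p = 0.0119). Its call was lost without shMina53 3 (adjusted p = 0.107).

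Among 7 tested caspase inhibitors limma called 0 genes (1 at an unadjusted p under 0.05), edgeR 0 and DESeq2 1. That 1 gene was Birc6, a giant inhibitor of apoptosis, named after its values were seen, with 2484 ± 627 scaled counts in shControl and 3341 ± 212 in shMina53 (log2 fold change 0.46; limma adjusted p = 0.0888, DESeq2 adjusted p = 0.0492). In replicate order Birc6 had 3000, 2666 and 1787 in shControl and 3180, 3261 and 3581 in shMina53. The low shControl 3 thus widened the difference, and shControl 1 lay close to shMina53 1. The list's median was 0.46, also with its 1 member without a read in shControl at its bound against a floor of 3 reads, but -0.10 over the 5 members that passed edgeR's filter. In the death receptor arm, which signals through Bid, limma called 0 of 10 tested genes (5 at an unadjusted p under 0.05, 3 above and 2 below zero; median 0.08), and edgeR and DESeq2 also 0. The median there was -0.01 over the 9 genes that passed edgeR's filter. Of 13 regulators of member proteins, 0 were called by limma (2 at an unadjusted p under 0.05; median -0.09), edgeR or DESeq2.

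Of 15 tested regulators of member transcripts, 5 were called lower, 0 higher (1 at an unadjusted limma p under 0.05, 0 by edgeR) and 10 not called (median -0.13). Of all genes tested, limma called 4.47% lower and 3.79% higher. Ddit3, the stress factor CHOP, measured 698, 784 and 1221 scaled counts in controls against 380, 318 and 394 in knockdown libraries (log2 fold change -1.27; limma adjusted p = 0.000936). Trib3, a pseudokinase gene of the same stress response, fell from 277 ± 29.3 to 119 ± 17.0 (-1.21; limma adjusted p = 0.000405), and Atf4, the factor upstream of both, from 4265 ± 815 to 2690 ± 290 (-0.65; limma adjusted p = 0.00612). The call of Atf4 was lost without shMina53 3 (adjusted p = 0.0746). Jun, an AP-1 factor that acts on Bcl2l11 and Bbc3 in dying neurons, fell from 5586 ± 236 to 3797 ± 177 (-0.56; limma adjusted p = 0.00346).

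The fifth called regulator, named after its values were seen, was Trp53, the gene of p53. Controls gave 1379, 1424 and 1557 scaled counts, and knockdown libraries 1237, 1123 and 996 (log2 fold change -0.38; limma adjusted p = 0.0475). That call was lost without shControl 2 or without any 1 shMina53 library (adjusted p up to 0.21), and with the replicate block (adjusted p = 0.0843). Bbc3 and Pmaip1, introduced above as p53 targets, had log2 fold changes of -0.73 and 0.51 beside a Trp53 value of -0.38. Bax, whose window held a p53 half-site, had -0.42 and was not called. Whether Trp53 has a part in these values was not tested. Foxo3, a known activator of Bbc3 and Bcl2l11, had 3028 ± 223 and 2827 ± 200 scaled counts and was not called (-0.10; limma adjusted p = 0.63). It too was named after its values were seen.

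**Figure D5:**
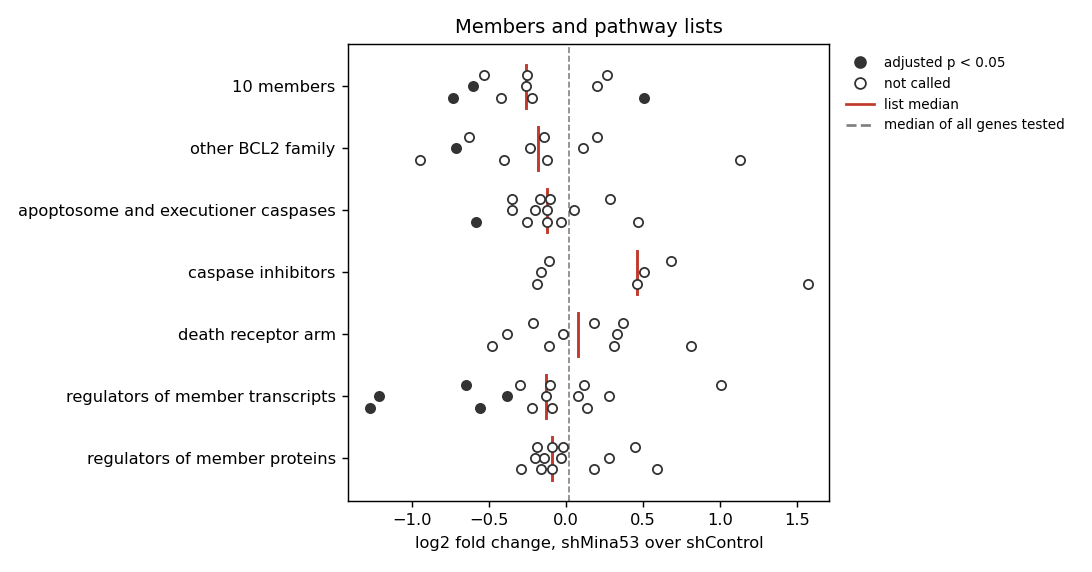
Log2 fold change (x axis) of the 10 members and of the tested genes of 6 pathway lists, filled where called, with each list's median as a red bar and the median of all genes tested (0.02) as a dashed line. The filled points below zero outside the members are Bok, Cycs, Ddit3, Trib3, Atf4, Jun and Trp53.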

How the data were processed

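The table deposited by the authors gives, per gene, 6 signal values (1 per library), 2 group means of that signal and a p-value whose test is not given. Each deposited signal was a whole multiple of 1 step per library (tolerance 0.01 reads, 100% of values), so it is a read count divided by 1 factor, and whole reads were recovered. Per the submitters' processing notes, the tools were HISAT2 2.0.4 and StringTie 1.3.4d, along with DESeq2, edgeR, CASAVA and UMI-tools, and the build was mm10, with no roles stated. Strand setting and deduplication are not given in the sources used here. In the authors' deposited table the p-value was 1.32e-07 for Bbc3, 5.28e-05 for Bcl2l1, 0.0015 for Pmaip1 and 0.00252 for Bax.

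The main test was limma 3.58.1 in R 4.3.3 (eBayes with trend and robust steps) on log2(scaled count + 1). It covered the 21500 genes whose mean reached 1, two-sided, Benjamini-Hochberg adjusted over all of them at 0.05. Fold changes are on that scale. edgeR 4.0.16 (quasi-likelihood, 15082 genes) and DESeq2 1.42.0 were run on the recovered reads, and other pseudocounts, filters, scalings, a replicate block, a length correction (lowess span 0.3) and left-out libraries were tried. The scripts were tested on simulated data. Positions and exon lengths are from GENCODE M21 (mm10), promoters from RefSeq GRCm38.p6. Replicate libraries differed by more than sampling noise (chi-square per gene 4.90 to 37.1). The largest values were those of shControl 3 against shControl 1 (37.1) and against shControl 2 (22.2), while shControl 1 against 2 gave 6.38. All 10 members, Riox2 and up to 4 called genes per list with the smallest adjusted p are named. Members and lists were chosen with earlier results of these data known. Listed genes that were not in the table were not analysed here. Another listed gene is not reported here.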

Additional observations from a re-analysis of the deposited data

How the results depend on the processing

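All 10 members kept their direction in each of 17 other settings. Without the trend and robust steps of limma 0 members were called higher and 0 lower (10 not called; 4 at an unadjusted p under 0.05, and 32 genes called in all against 1776), while edgeR on the recovered reads called 1 higher and 2 lower. Fits that dropped a single library called 0 to 1 members higher, 1 to 4 members lower and 493 to 2781 genes in all. Bax was also called with no filter, with equal library totals and with the length trend removed (adjusted p = 0.0332, 0.0487 and 0.0454). With the replicate block 1 member was called higher and 2 lower, as without it, although 1178 genes were called in all. Same-numbered libraries did not deviate together (correlations of -0.076 to 0.049 across 14872 genes, and not every library correlated best with its own number), so the numbers do not show pairing. Per kb of the longest transcript, pro-death over anti-death transcripts in shControl was 1.83 in place of 1.51, since shorter lengths apply to several members. Levels between genes therefore depend on the gene model. With 3 libraries per group, differences under about the half-width of the intervals given could not be resolved.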
